A study of Mus musculus with 4 samples.

Results

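Cultured mouse prostate fibroblasts labelled with PBS (phosphate-buffered saline) and radiation were compared with those labelled BuOE and not irradiated, which sets the 2 single treatments of the study directly against each other, 1 library a side. The genes described are those with a mean of at least 1 CPM (CPM is the read count scaled to a common library size) over the 4 libraries of the series. That rule kept 14365 of 56748 gene IDs. It is not set on the difference between the 2 libraries, but the mean includes both of them. A scarce gene can therefore pass through the library where it is high, and its ratio is then partly fixed by the rule. Just inside the limit lay Hpse2 (1.00 CPM) and Cntn3 (1.00 CPM), and just outside it Nlrc4 (0.999 CPM) and P2ry14 (0.997 CPM).

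The study sequenced bulk RNA in 4 libraries of cells cultured from prostate, 1 for each of PBS, BuOE, PBS and radiation, and BuOE and radiation. Per the labels, the animals of every group were male C57BL/6 mice aged 8 to 10 weeks (the genotype tag spells the strain CB57BL/6). Those irradiated received 37.5 Gy to the pelvis over 5 days, each fraction being 7.5 Gy, at a rate of 1.2 Gy per minute. Cells were freed from the organs with collagenase and cultured in serum, so every library, unirradiated ones included, is of cells that grew out in a dish. The title of the series names BMX-001, a superoxide dismutase mimic of the manganese porphyrin class whose chemical name contains BuOE, and places its use 3 weeks after radiation. The sample labels do not say whether PBS and BuOE went to the animals or to the cultures, and they give no dose of BuOE, no time of it for the unirradiated library, no interval between radiation and culture, and no number of animals or passages behind a library. With 1 library a side there is no replicate check, and each ratio compares 2 libraries, not 2 conditions.

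Ionizing radiation breaks DNA, and cells respond through p53, which halts the cell cycle by way of inhibitors such as Cdkn1a. In the weeks and months after radiation a tissue can scar: fibroblasts take on the contractile machinery of myofibroblasts, respond to TGF-beta and to stretch through YAP and TEAD, and lay down collagens, fibronectin and proteoglycans. Superoxide dismutase and its mimics convert superoxide to hydrogen peroxide, and cells answer oxidants through the transcription factor NRF2. A culture from dissociated prostate can also carry over epithelial cells, nerve, vessel and immune cells, whose transcripts then stand beside those of fibroblasts.

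Ratios are log2 ratios of the irradiated PBS library over the BuOE library, so a positive value is higher in the irradiated PBS library. The range that follows a ratio is a 95% interval for the counting error alone. That interval left out 0 for 9122 genes (63.5% of those measured), so leaving out 0 does not set a gene apart. Where 4 levels are given they stand in the order PBS, BuOE, irradiated PBS, irradiated BuOE, in scaled CPM, and levels of different genes are not comparable, since CPM takes no account of transcript length. Depth was 35.9 M counts for the irradiated PBS and 28.9 M for the BuOE library, where 3 counts equal 0.0842 and 0.0990 CPM.

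The labelled cell type was present in both libraries, together with others. Summed fibroblast markers (17 genes) stood at 5763, 5337, 7472 and 5189 CPM, and epithelial markers (19 genes) at 5766, 7834, 4953 and 8025 CPM. All 17 fibroblast markers passed the filter, as did all 19 epithelial, all 14 endothelial and all 14 Schwann cell markers. Of the 20 macrophage and leukocyte markers 15 passed, and the T and B cell genes Cd3e, Cd3g and Ms4a1 were among the 5 that did not. In bulk RNA, fewer cells of a type and less RNA per cell cannot be told apart, and this holds for each list of markers below.

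Most genes differed little between the libraries. Of 14365 genes, 13330 (92.8%) lay within 2-fold, with a median ratio of 0.018 and quartiles of -0.22 and 0.24. At least 2-fold higher in the irradiated PBS library were 465 genes (3.24% of those measured), and at least 2-fold lower 570 (3.97%). These shares are the ones to set beside each count of list members past 2-fold below. With the median of all genes near 0, about as many genes lay above 0 as below it. A 4-fold excess was reached by 41 genes in the irradiated PBS library and by 54 in the BuOE library. The lower genes were mostly scarce transcripts: among genes with a mean of 10 CPM or more the order turned, with 236 higher (2.39%) and 155 lower (1.57%), and among those with 100 CPM or more 27 were higher (1.14%) and 18 lower (0.759%). At the 2-fold edge lay Dbf4 (inside) and Cks1b (outside) on the higher side, and Hpgd (inside) and Pcsk1 (outside) on the lower side, each at 2.00-fold when rounded. The counting interval lay wholly beyond 2-fold for 245 higher and 313 lower genes.

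**Figure D1:**
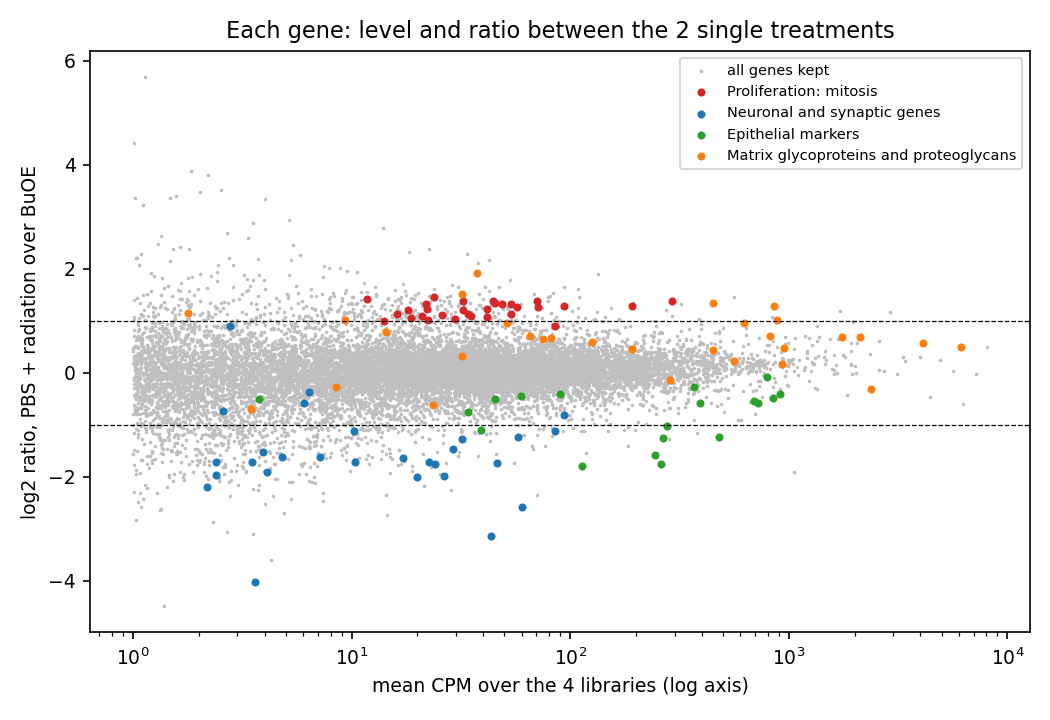
Each point is a gene, with its mean CPM over the 4 libraries on a log axis and its log2 ratio of the irradiated PBS over the BuOE library on the vertical axis; dashed lines mark 2-fold. All 30 mitosis genes (red) lie above 0 and 27 of 28 neuronal genes (blue) below it, while 92.8% of all genes (grey) lie between the lines.

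Genes of cell division stood out on the irradiated PBS side by the share of members past 2-fold. Of 30 mitosis genes, all measured, 28 were at least 2-fold higher in the irradiated PBS library and none lower, against 3.24% of all genes. Their median ratio was 1.22, against 0.018 over all genes, and the members ranged narrowly, from 0.90 to 1.45. Summed over the list, the 4 libraries stood at 2476, 928, 2204 and 662 CPM, so the irradiated PBS library lay near the untreated PBS library and the BuOE library near the irradiated BuOE library.

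Mki67, whose protein coats mitotic chromosomes and marks cycling cells, stood at 446, 169, 438 and 112 CPM, with a ratio of 1.37 (1.32 to 1.42). Top2a, which encodes the topoisomerase that untangles replicated chromosomes, stood at 299, 114, 276 and 75.4 CPM and had a ratio of 1.27 (1.22 to 1.33). Birc5, which encodes survivin of the chromosomal passenger complex, led the list at 1.45 (1.29 to 1.63), with 32.9 against 12.0 CPM. In each of these 3 genes both PBS libraries lay above both BuOE libraries. The members inside 2-fold were Prc1, a protein of the central spindle (ratio 0.90, 0.82 to 0.98), and Cks2, a partner of the cyclin-dependent kinases, which had a ratio of 1.00 (0.79 to 1.21) with 17.8 against 8.87 CPM. Ncapg, a condensin subunit, had the highest ratio among cell division genes with a mean of 10 CPM or more that the naming rule took (ratio 1.70, 1.51 to 1.92). It was followed by Pclaf, a partner of the replication clamp (ratio 1.65, 1.50 to 1.81), and Tk1, the thymidine kinase of S phase (ratio 1.61, 1.45 to 1.79).

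DNA replication genes lay on the same side with a wider range. All 28 members had ratios above 0 (median 0.91). Of them, 11 were at least 2-fold higher in the irradiated PBS library, against 3.24% of all genes. Ccne2, the cyclin that opens S phase, had the highest ratio (ratio 1.48, 1.26 to 1.73) and the clamp loader subunit Rfc3 the lowest (ratio 0.26, 0.075 to 0.44). Rrm2, the inducible subunit of ribonucleotide reductase, stood at 307, 99.3, 252 and 116 CPM (ratio 1.34, 1.29 to 1.41). Its partner Rrm1 stood at 250.4, 106, 216 and 97.7 CPM (ratio 1.03, 0.97 to 1.09). The replication licensing genes Mcm2 (ratio 0.62, 0.53 to 0.71) and Mcm5 (ratio 1.09, 0.99 to 1.18) differed by unequal amounts. Pcna, the replication clamp, differed less (ratio 0.48, 0.40 to 0.55).

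Replication-dependent histone genes, which are transcribed in S phase, followed. Of 21 listed, 20 were measured, with a median ratio of 1.00. At least 2-fold higher in the irradiated PBS library were 10 of them, against 3.24% of all genes. Hist1h1a stood at 122, 34.1, 97.5 and 20.5 CPM (ratio 1.52, 1.42 to 1.62) and Hist1h1b at 139, 41.8, 109 and 28.2 CPM (ratio 1.38, 1.28 to 1.47). The linker histone gene Hist1h1c, which was the most expressed of the list, was close to 0 at -0.075 (-0.12 to -0.033). Over the whole family of Hist1 symbols, 30 of 46 measured genes were at least 2-fold higher. These genes make up 30 of the 49 genes at least 2-fold higher on chromosome 13, where 46 of 560 measured genes belong to the family. Copies of histone genes are near-identical, so reads can be shared between them and the value of any single copy is uncertain.

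Among 29 genes of DNA damage signalling and repair, 27 had ratios above 0 (median 0.38). On the irradiated PBS side 4 exceeded 2-fold (13.8%, against 3.24% of all genes), among them Fancd2, a gene of DNA crosslink repair. It stood at 17.6, 6.00, 17.8 and 5.72 CPM (ratio 1.56, 1.33 to 1.81), with both PBS libraries above both BuOE libraries. Trp53bp1, which marks double-strand breaks, was level at -0.055 (-0.13 to 0.022). Beside these lists, epithelial markers were 1.58-fold higher in the BuOE library when summed and fibroblast markers summed to 7472 against 5337 CPM, and their part in the cell cycle ratios was not tested.

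The mitosis genes lay together, so promoters are shown of the 3 members with the highest ratio whose upstream 200 bases, from RefSeq (GRCm38.p6), hold the sequence TTTGAA on either strand. TTTGAA is the core of the cell cycle genes homology region, an element known from promoters of mitotic genes. The sequences run 5′ to 3′ toward the start site, and capitals mark each match, which reads TTCAAA where it lies on the other strand.
Kif11, chr19:37376182-37376381, plus strand: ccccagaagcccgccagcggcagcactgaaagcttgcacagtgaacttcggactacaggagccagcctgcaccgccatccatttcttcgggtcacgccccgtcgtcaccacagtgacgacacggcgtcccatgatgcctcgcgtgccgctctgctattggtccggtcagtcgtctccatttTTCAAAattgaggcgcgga
Mki67, chr7:135716380-135716579, minus strand: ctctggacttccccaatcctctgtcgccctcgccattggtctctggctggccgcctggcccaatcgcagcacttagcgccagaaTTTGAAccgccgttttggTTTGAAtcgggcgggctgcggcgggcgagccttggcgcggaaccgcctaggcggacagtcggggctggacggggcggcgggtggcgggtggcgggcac
Top2a, chr11:99024190-99024389, minus strand: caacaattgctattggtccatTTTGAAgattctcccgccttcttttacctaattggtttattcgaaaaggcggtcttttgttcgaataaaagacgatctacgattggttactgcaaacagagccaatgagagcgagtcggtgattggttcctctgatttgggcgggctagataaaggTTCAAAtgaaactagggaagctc
Kif11 encodes the motor that separates spindle poles (ratio 1.37, 1.26 to 1.50). Over 250 bases upstream, 10 of the 26 mitosis genes with a promoter in the table (38.5%) held TTTGAA on either strand, against 12.8% of the 10720 measured genes with one and 16.0% of all promoters. The letters CCAAT, searched on both strands, were held by 20 of those 26 (76.9%), against 40.1% of measured genes and 33.8% of all promoters. GGCGGGAA, a form of the site of E2F factors, was held by none of the 26, by 4 of 23 DNA replication genes (17.4%) and by 4.04% of measured genes (1.86% of all promoters). These are matches of letters and not shown to be sites.

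**Figure D2:**
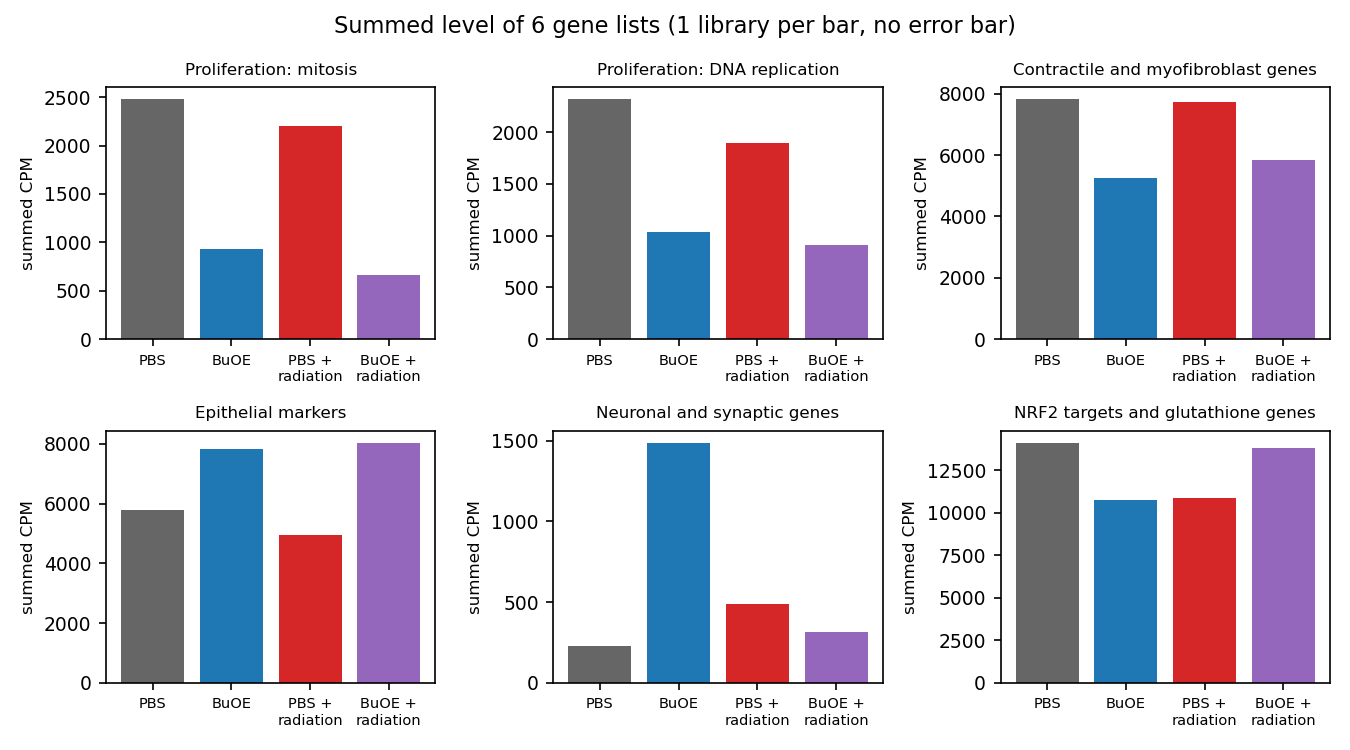
Bars give the summed CPM of the listed genes in each library, 1 library per bar and no error bar, with each axis starting at 0. Mitosis genes stand at 2476, 928, 2204 and 662 CPM from left to right, neuronal genes reach 1486 CPM in the BuOE library, and NRF2 targets are level between the BuOE and the irradiated PBS library.

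Contractile genes separated the libraries by a subset of smooth muscle genes. Of 19 members, all measured, 14 had ratios above 0 (median 0.41), 4 exceeded 2-fold on the irradiated PBS side and 1 on the BuOE side. Over all genes these shares were 3.24% and 3.97%. Acta2, the smooth muscle actin that marks myofibroblasts, stood at 782, 308, 845 and 298 CPM (ratio 1.46, 1.42 to 1.49). Tagln, an actin-binding protein of smooth muscle, stood at 388, 175, 435 and 282 CPM (ratio 1.31, 1.27 to 1.36). In both genes the PBS libraries lay above the BuOE libraries. Actg2, the enteric smooth muscle actin, had the highest ratio (ratio 2.11, 1.97 to 2.25, 68.4 against 15.8 CPM) and Myl9, the regulatory myosin light chain, followed (ratio 1.64, 1.53 to 1.77, 77.9 against 24.9 CPM). Myh11, the myosin heavy chain of differentiated smooth muscle, ran the other way: it stood at 24.4, 99.4, 43.4 and 116 CPM (ratio -1.19, -1.29 to -1.11), lowest in the PBS library. Of the 10 measured smooth muscle and pericyte markers, 8 had ratios below 0 (median -0.46). Their sums were 489, 801, 634 and 729.8 CPM, and their part in the contractile ratios was not tested.

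Contractile genes are targets of serum response factor, which binds the CArG box, and Myl9 is the member with the highest ratio whose upstream 200 bases in the RefSeq table (GRCm38.p6) hold that motif. Capitals mark the match.
Myl9, chr2:156775264-156775463, plus strand: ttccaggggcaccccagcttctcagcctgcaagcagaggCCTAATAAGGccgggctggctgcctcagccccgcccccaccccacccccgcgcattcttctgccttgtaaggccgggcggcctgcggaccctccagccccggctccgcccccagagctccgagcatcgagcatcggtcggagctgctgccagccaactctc
The CArG box was searched on both strands over 250 bases. It was found in 3 of 16 contractile genes with a promoter in the table (18.8%), against 1.45% of measured genes and 1.47% of all promoters.

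YAP and TEAD target genes, which respond to stretch and cell density, had a median ratio of 0.61, with 11 of 16 above 0. At least 2-fold higher in the irradiated PBS library were 3 of them, against 3.24% of all genes. Ankrd1, a cardiac ankyrin repeat protein gene and common reporter of YAP, stood at 69.7, 21.0, 72.8 and 47.6 CPM (ratio 1.79, 1.67 to 1.92). Ccn2, the matricellular growth factor of connective tissue, stood at 863, 494, 1037 and 954 CPM (ratio 1.07, 1.04 to 1.10), and its relative Ccn1 at 639.8, 372, 674 and 867 CPM (ratio 0.86, 0.82 to 0.89). In Ankrd1, Ccn1 and Ccn2 the BuOE library was the lowest of the 4. Vgll3, a cofactor of TEAD in fibroblasts that stood outside the list, was also low there (121, 42.6, 134 and 76.3 CPM, ratio 1.66, 1.57 to 1.75). Ptpn14, a phosphatase that restrains YAP, was lowest among the members (ratio -0.55, -0.61 to -0.49).

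TGF-beta ligands, receptors and response genes were not displaced as a list (median 0.054, 14 of 21 above 0). Ccn2 was the single member past 2-fold. Inhba, which encodes the activin subunit, stood at 1491, 995, 1852 and 1054 CPM (ratio 0.90, 0.88 to 0.92). Tgfb1 itself had a ratio of 0.051 (0.0091 to 0.094), and its sign turned with scaling by library size alone (-0.032). Grem1, an antagonist of BMP ligands, stood at 217, 51.8, 195 and 75.2 CPM (ratio 1.91, 1.83 to 1.99), and both PBS libraries exceeded both BuOE libraries.

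Matrix genes were higher in the irradiated PBS library by smaller ratios. Of 9 fibrillar collagen genes, 7 had ratios above 0 and the median was 0.61; Col11a1, a minor fibril collagen, was the member past 2-fold (ratio 1.30, 1.16 to 1.45), and Col27a1 the lowest (ratio -0.81, -0.91 to -0.70). Col1a1 and Col1a2 encode the chains of type I collagen and Col3a1 that of type III. Col1a1 stood at 1652, 1443, 2249 and 795 CPM (ratio 0.64, 0.62 to 0.66). Col3a1 stood at 1264, 1725, 2687 and 1012 CPM (ratio 0.64, 0.62 to 0.66). In both the irradiated PBS library was the highest and the irradiated BuOE library the lowest of the 4. Basement membrane and other collagens were not displaced (median 0.046), from Col12a1 at 0.85 (0.82 to 0.88) to Col8a2 at -0.97 (-1.36 to -0.62). Col18a1, the collagen from which endostatin is cut, was higher in the BuOE library (318, 887, 471 and 658 CPM, ratio -0.91, -0.94 to -0.88).

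Among 30 matrix glycoproteins and proteoglycans, 25 had ratios above 0 (median 0.65). Past 2-fold on the irradiated PBS side were 7 (23.3%, against 3.24% of all genes), and on the BuOE side none. The 7 were Efemp1, Fbln5, Vcan, Fbln2, Aspn, Fbn1 and Ogn, of which Efemp1, Fbln5, Fbln2 and Fbn1 belong to the fibulin and fibrillin families of elastic fibres. Fbln2 stood at 1394, 429.8, 1049 and 557 CPM (ratio 1.29, 1.26 to 1.32), and Efemp1 at 64.7, 12.5, 47.1 and 26.1 CPM (ratio 1.91, 1.75 to 2.08). Vcan, the large proteoglycan of provisional matrix, stood at 582, 277, 698 and 246 CPM (ratio 1.33, 1.30 to 1.37). Each of these had both PBS libraries above both BuOE libraries. Fn1, which encodes fibronectin, stood at 3182, 3747, 5576 and 3997 CPM (ratio 0.57, 0.56 to 0.58), with the irradiated PBS library alone at the top. Thbs1, an activator of latent TGF-beta, had a ratio of 0.50 (0.49 to 0.51), while tenascin gene Tnc was lower (ratio -0.31, -0.32 to -0.30) and Fmod, a small proteoglycan of collagen fibrils, had the lowest ratio (ratio -0.70, -1.08 to -0.35).

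Enzymes that process and cross-link collagen showed 16 of 18 ratios above 0 (median 0.49). Lox, the lysyl oxidase, stood at 1717, 823, 1336 and 866 CPM (ratio 0.70, 0.68 to 0.72), its relative Loxl3 had the highest ratio (ratio 1.07, 0.99 to 1.15), and the transglutaminase gene Tgm2 the lowest (ratio -0.55, -0.59 to -0.50). Proteases and inhibitors of the matrix had a median of 0.24. Timp1, an inhibitor of metalloproteinases, was higher in the irradiated PBS library (1533, 771, 1229 and 718 CPM, ratio 0.67, 0.65 to 0.70), whereas the stromelysin gene Mmp3 was slightly lower (ratio -0.16, -0.18 to -0.14). Mmp7, the matrilysin of glandular epithelium, was among the lowest ratios of all (12.7, 45.9, 9.54 and 46.2 CPM, ratio -2.26, -2.44 to -2.09), and there both BuOE libraries exceeded both PBS libraries. Beside these matrix lists, fibroblast markers summed to 7472 CPM in the irradiated PBS and 5337 CPM in the BuOE library, and epithelial markers to 4953 and 7834 CPM. Of the matrix sums, fibrillar collagens were 1.50-fold and glycoproteins 1.42-fold higher in the irradiated PBS library. The fibroblast list shares 5 members with the matrix lists. Its most expressed genes are themselves collagens: Col1a1 and Col1a2 gave 2249 and 1899 of the 7472 CPM, and 1443 and 1173 of the 5337 CPM. The fibroblast sum is therefore not independent of the matrix sums, and the part of cell makeup in the matrix ratios was not tested.

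**Figure D3:**
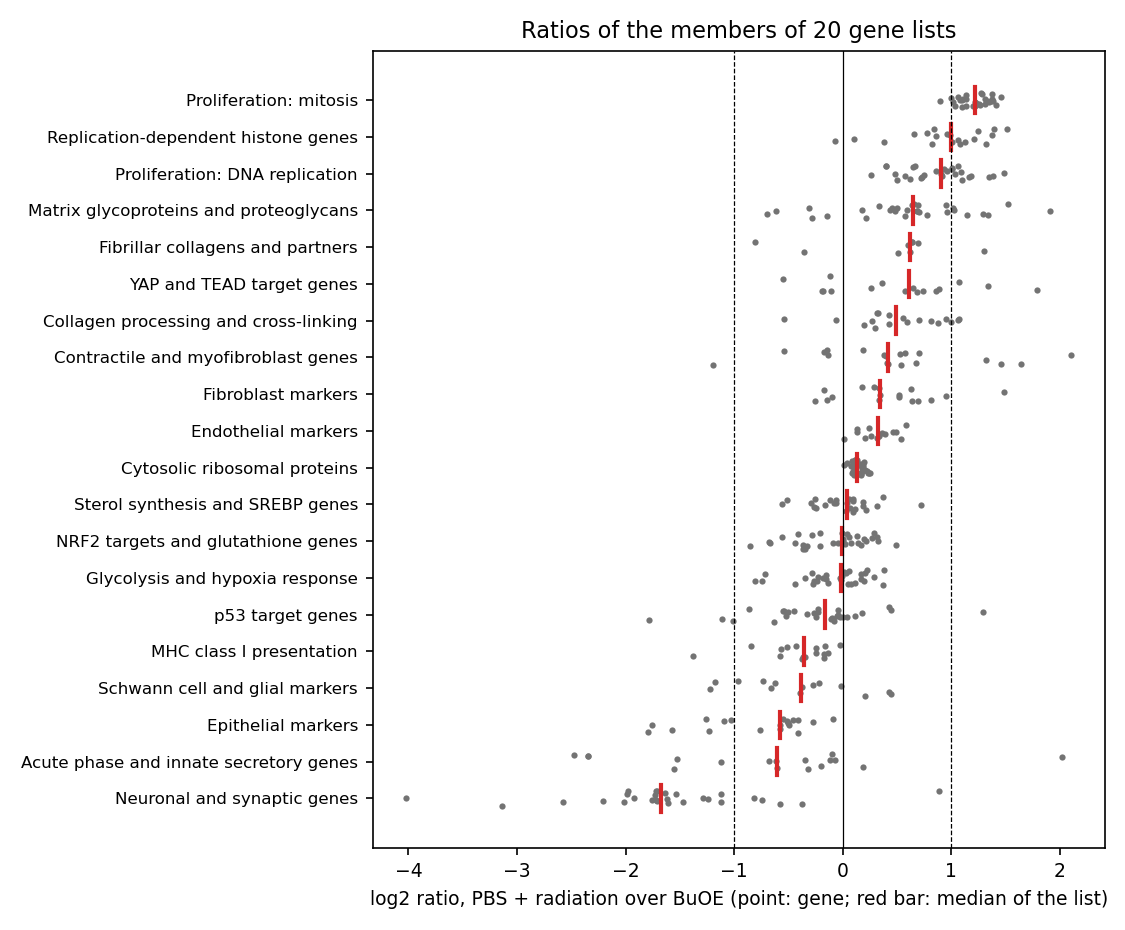
Each point is the log2 ratio of a gene, irradiated PBS over BuOE, for the measured members of 20 lists; the red bar is the median of the list and dashed lines mark 2-fold. Medians run from 1.22 for mitosis genes to -1.67 for neuronal genes, and lists such as NRF2 targets straddle 0.

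The highest ratio among genes with a mean of 10 CPM or more was that of Tnfsf15, a TNF family ligand, at 28.47, 2.705, 19.03 and 5.186 CPM (ratio 2.78, 2.48 to 3.16). Cxcl5, a neutrophil chemokine, stood at 25.6, 14.3, 70.0 and 25.1 CPM (ratio 2.28, 2.14 to 2.44) with the irradiated PBS library far above the other 3. Ptx3, a secreted pattern recognition protein, stood at 73.3, 12.2, 55.1 and 30.2 CPM (ratio 2.16, 2.01 to 2.33). Tnfsf15 and Ptx3 were highest in the unirradiated PBS library, so there the BuOE library was low rather than the irradiated PBS library high. Ccl2, the monocyte chemokine, stood at 117, 62.8, 144 and 82.8 CPM (ratio 1.20, 1.12 to 1.27). Ccl11, the eosinophil chemokine, stood at 9.09, 3.40, 14.3 and 3.00 CPM (ratio 2.05, 1.77 to 2.39). In both the irradiated PBS library was the highest. Csf1, the growth factor of macrophages, stood at 2781, 831, 1894 and 1349 CPM (ratio 1.19, 1.17 to 1.21). Spp1, which encodes osteopontin, stood at 1949, 1536, 3026 and 1356 CPM (ratio 0.98, 0.96 to 0.99). Senescence-associated secreted factors, the list that holds several of these, had a median of 0.36. Of its 24 measured members 5 were at least 2-fold higher, against 3.24% of all genes. In CPM, the largest excess of the irradiated PBS library was in Actb, the cytoplasmic actin gene (10339.9, 6277, 8877 and 6776 CPM, ratio 0.50, 0.49 to 0.51), and that of the BuOE library in Clu, which encodes the chaperone clusterin (4410.4, 5512, 3989 and 3791 CPM, ratio -0.47, -0.48 to -0.46). Il6 was on the BuOE side (24.8, 54.5, 45.1 and 34.2 CPM, ratio -0.27, -0.38 to -0.18). Cdkn2a, an inhibitor of the cell cycle in senescence, was scarce in each library (2.21, 0.495, 1.91 and 0.823 CPM, ratio 1.81, 1.13 to 2.86).

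**Figure D4:**
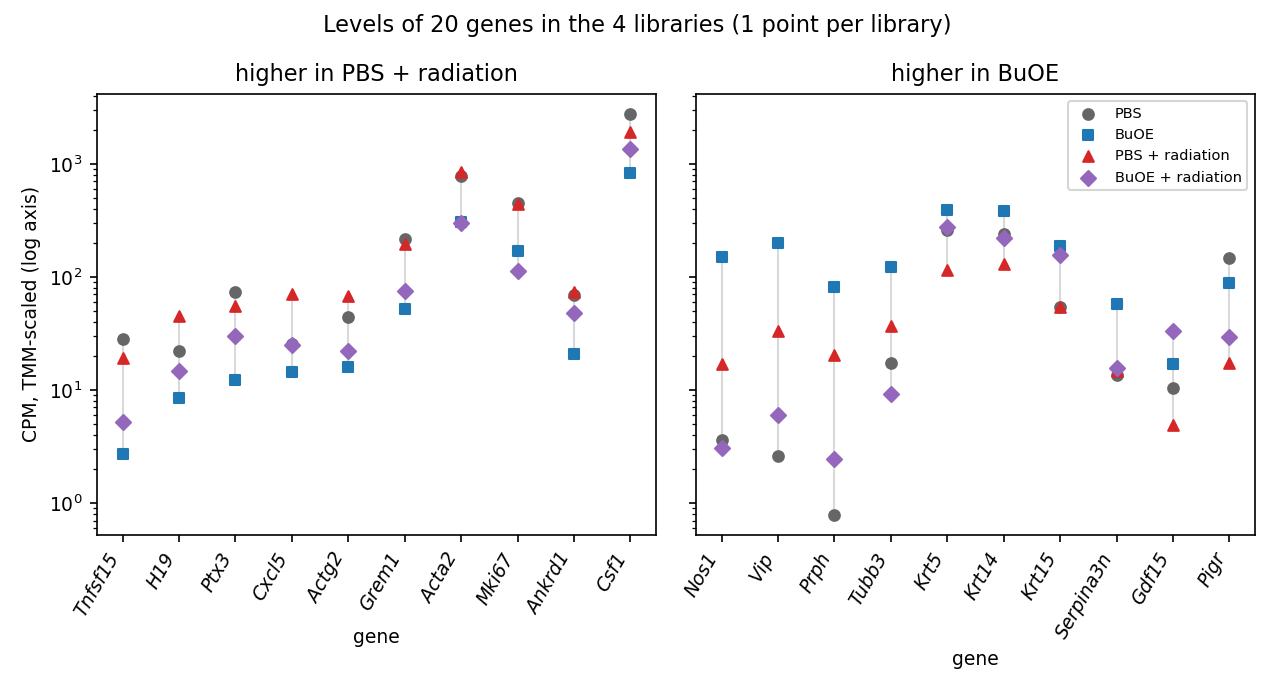
Points give scaled CPM on a log axis for 20 genes, 1 point per library and shape; the left panel shows genes higher in the irradiated PBS library than in the BuOE library and the right panel the reverse. Acta2 and Mki67 have both PBS libraries on top, Ankrd1 has the BuOE library alone at the bottom (21.0 CPM), and Nos1, Vip and Prph have the BuOE library alone on top.

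Imprinted genes of the fetal growth network stood apart in the same direction. Of 14 measured, 11 had ratios above 0 (median 0.68). At least 2-fold higher in the irradiated PBS library were 5, against 3.24% of all genes. H19, a non-coding RNA of the imprinted Igf2 locus, stood at 22.2, 8.51, 44.7 and 14.7 CPM (ratio 2.38, 2.20 to 2.59), while Igf2 did not pass the filter. Dlk1, a Notch-like ligand that holds back differentiation, stood at 21.7, 3.79, 12.7 and 7.24 CPM (ratio 1.72, 1.44 to 2.05). Peg10, a gene of retroviral origin needed in placenta, stood at 46.2, 20.1, 57.4 and 29.5 CPM (ratio 1.51, 1.38 to 1.65). In H19 and Peg10 the irradiated PBS library was the highest, in Dlk1 the untreated PBS library, and the BuOE library was the lowest in each of the 3. The list median was 0.90 among members with a mean of 10 CPM or more.

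Genes of skeletal myogenesis were scarce and gave the widest ratios on this side. Myog, the myogenin gene, had 120 counts in the irradiated PBS library and none in the BuOE library, which is at least 34.0-fold higher when 3 counts are taken as the floor of that library. With a mean of 1.13 CPM, Myog passed the filter through the PBS libraries alone. Myod1, which commits cells to muscle, stood at 4.19, 0.396, 5.22 and 0.329 CPM (ratio 3.51, 2.88 to 4.70), and Chrna1, the muscle acetylcholine receptor subunit, at 6.27, 1.25, 5.98 and 1.36 CPM (ratio 2.20, 1.75 to 2.79). Myh3, the embryonic myosin, had 99 counts against 2 (ratio 4.42, 3.51 to 8.46). In these 4 genes both PBS libraries lay above both BuOE libraries. Desmin gene Des, the most expressed of the list and shared with smooth muscle, ran the other way (ratio -0.54, -0.62 to -0.45), and it sets the median of the list where a mean of 10 CPM is required. Of 13 listed genes, 7 were measured and 4 were at least 2-fold higher, and Pax7, Myf5 and Myf6 did not pass the filter. Tbx20, a transcription factor of mesoderm named here after its values were seen, stood at 0.545, 1.58, 12.0 and 0.0412 CPM (ratio 2.87, 2.49 to 3.39). It passed the filter through the irradiated PBS library, so its ratio is partly fixed by the rule.

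Wnt genes lay on both sides of 0: of 23 measured, 12 had ratios above 0 and 11 below, with 4 past 2-fold on the irradiated PBS side and 2 on the BuOE side. Wnt2, a stromal ligand, stood at 25.4, 6.07, 12.5 and 8.27 CPM (ratio 1.04, 0.80 to 1.30), and Wif1, a secreted inhibitor of Wnt ligands, at 0.238, 8.25, 1.88 and 15.9 CPM (ratio -2.09, -2.54 to -1.74). Mesothelial markers did so as well, with Lrrn4 at 3.80 (3.03 to 5.67) and Bnc1 at -1.10 (-1.30 to -0.91). Proliferin gene Prl2c3, a member of the prolactin family, stood at 26.3, 2.44, 7.75 and 14.6 CPM (ratio 1.64, 1.29 to 2.06), and its near-identical copies make the value uncertain. Bc1, a short RNA known from neurons, stood at 1.81, 6.00, 30.3 and 35.1 CPM (ratio 2.32, 2.11 to 2.57), with both irradiated libraries above both unirradiated ones.

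On the BuOE side, neuronal genes were the most displaced list. Of 28 measured neuronal and synaptic genes, 23 were past 2-fold on the BuOE side, against 3.97% of all genes, and 1 had a ratio above 0. Their median was -1.67. The share of all genes past 2-fold on that side depended on level. It was 11.3% at 1 to 3 CPM, 7.56% at 3 to 10 CPM and 0.759% at 100 CPM and over. Uchl1, the most expressed member, lay inside 2-fold (ratio -0.82). Summed, the neuronal genes stood at 230.4, 1486, 489 and 317 CPM, so the BuOE library exceeded each of the other 3, and the irradiated PBS library was the second highest.

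Nos1, the neuronal nitric oxide synthase, stood at 3.58, 150.3, 17.0 and 3.09 CPM (ratio -3.14, -3.27 to -3.02). Vip, a neuropeptide of parasympathetic nerves, stood at 2.62, 199, 33.2 and 5.97 CPM (ratio -2.58, -2.67 to -2.49), and Prph, the neurofilament peripherin, at 0.783, 81.7, 20.6 and 2.43 CPM (ratio -1.99, -2.11 to -1.87). Chgb, a secretory granule protein, was lowest among the members (ratio -4.02, -4.78 to -3.57), with 391 counts in the BuOE library and 26 in the irradiated PBS library. At 0.238, 12.9, 0.730 and 0.576 CPM, Chgb passed the filter through the BuOE library. Slc18a3, the vesicular acetylcholine transporter named here after its value was seen, stood at 0.0681, 15.7, 1.24 and 0.123 CPM (ratio -3.60, -4.15 to -3.22). Slc18a3 too passed the filter through the BuOE library, so its ratio is partly fixed by the rule. The noradrenergic enzymes did not follow to the same degree: Th, tyrosine hydroxylase, was higher in the irradiated PBS library (7.02 against 3.76 CPM, ratio 0.89, 0.57 to 1.23), and Dbh, dopamine beta-hydroxylase, had a ratio of -0.37 (-0.58 to -0.17).

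Schwann cell and glial markers were also higher in the BuOE library, by less. Of 14 measured, 11 had ratios below 0 and the median was -0.39, with summed levels of 261, 668, 505 and 425 CPM. Sox10, the regulator of glial identity, stood at 6.51, 50.6, 25.9 and 26.4 CPM (ratio -0.96, -1.08 to -0.85), and Ngfr, the low-affinity neurotrophin receptor, at 25.2, 179, 76.5 and 49.7 CPM (ratio -1.22, -1.29 to -1.16). Summed neuronal and glial transcripts were thus above the untreated PBS library in both single treatments. Not every member followed: Uchl1 (90.5 CPM in PBS, 81.9 CPM in irradiated PBS) and Nefl (25.8 and 13.3 CPM) were lower in the irradiated PBS library than in PBS. Whether the sums follow nerve carried over into the cultures was not tested.

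Epithelial markers were higher in the BuOE library in all 19 members, with a median ratio of -0.58. Past 2-fold were 7 members (36.8%, against 3.97% of all genes). The 7 were Krt15, Krt5, Krt14, Krt17, Dsp, Trp63 and Jup, which are genes of basal cells and of desmosomes. Krt5, the basal keratin, stood at 262, 388, 115 and 278 CPM (ratio -1.76, -1.81 to -1.71). Its partner Krt14 stood at 237, 385, 129 and 222 CPM (ratio -1.58, -1.63 to -1.53), and Krt15 at 54.6, 187, 53.9 and 155 CPM (ratio -1.79, -1.87 to -1.72). In Krt5 and Krt14 the irradiated PBS library was the lowest of the 4. Luminal keratins differed less, with Krt8 at -0.41 (-0.44 to -0.39) and Krt18 at -0.086 (-0.11 to -0.06). Itgb4 (ratio -1.27, -1.31 to -1.23) and Col17a1 (ratio -1.42, -1.47 to -1.36), which anchor basal cells through hemidesmosomes, lay with the basal keratins. Spink5, an epithelial protease inhibitor, had the lowest ratio but that of Nos1 among genes with a mean of 10 CPM or more (9.98, 35.2, 5.22 and 7.78 CPM, ratio -2.74, -2.98 to -2.53).

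Prostate and seminal secretory genes lay on both sides. Of 16 measured, 9 had ratios above 0 and 7 below, and the median was 0.082. Svs6 (0.786 against 7.22 CPM, ratio -3.10, -3.82 to -2.63) and Ceacam10 (7.36, 42.9, 12.1 and 29.8 CPM, ratio -1.82, -1.98 to -1.67) were higher in the BuOE library, Crisp1 was higher in the irradiated PBS library (1.63 against 0.0989 CPM, ratio 3.35, 2.42 to 6.36), and Sbp was near level (ratio 0.035, 0.0012 to 0.069), its sign turning with scaling by library size alone (-0.048). Genes of the Svs family are near-identical in part, so their reads can be shared.

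Acute phase and innate secretory genes were lower in the irradiated PBS library in 15 of 17 measured members (median -0.61). Past 2-fold on that side were 6 (35.3%, against 3.97% of all genes). Pigr, the receptor that carries antibodies across epithelium, stood at 147, 88.5, 17.3 and 29.3 CPM (ratio -2.35, -2.48 to -2.23), and Cp, which encodes ceruloplasmin, at 128, 182, 62.2 and 99.8 CPM (ratio -1.55, -1.62 to -1.48). Lcn2, an iron-sequestering lipocalin, stood at 107, 231, 106 and 149 CPM (ratio -1.12, -1.18 to -1.06). In these 3 genes the BuOE library stood above the irradiated PBS library, but for Pigr the untreated PBS library was the highest. Steap4, a metalloreductase, stood at 22.5, 26.4, 5.14 and 3.54 CPM (ratio -2.35, -2.60 to -2.13). Serpina3n, an inhibitor of serine proteases outside the list, was high in the BuOE library alone (13.5, 57.2, 14.7 and 15.8 CPM, ratio -1.96, -2.11 to -1.82). Several of these genes are also made by epithelium, whose markers were 1.58-fold higher in the BuOE library, and the part of epithelium in these ratios was not tested. Hp, which encodes haptoglobin, was far lower in both libraries than in the PBS library (365, 3.00, 1.85 and 4.16 CPM), with a ratio of -0.68 (-1.18 to -0.22).

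Some immune lists leaned to the BuOE side by small ratios, while IL-1 and IL-6 family genes were near level (median -0.050, 9 of 19 above 0). MHC class I presentation genes had 16 of 16 ratios below 0 (median -0.36), with H2-D1 at 556, 655, 443 and 1016 CPM (ratio -0.57, -0.60 to -0.54) and B2m at -0.17 (-0.20 to -0.14). NF-kB genes and chemokines had 19 of 25 below 0 (median -0.27), but their sum was level between the BuOE (1380 CPM) and irradiated PBS (1383 CPM) libraries. The most expressed genes of that list, Tnfaip2 (ratio 0.82) and Cxcl12 (ratio 0.33), lay on the irradiated PBS side. Macrophage and leukocyte markers had 13 of 15 below 0 (median -0.39, summed levels 475, 566, 438 and 662 CPM). The complement genes C1qa, C1qb and C1qc, made by macrophages, were past 2-fold on the BuOE side, with C1qc at 10.6, 27.9, 7.27 and 14.3 CPM (ratio -1.93, -2.15 to -1.74). Lyz2, the most expressed macrophage and leukocyte marker, was near level (ratio 0.043). The scarce Cd163 was past 2-fold on the irradiated PBS side (2.08 against 0.396 CPM, ratio 2.21), and it passed the filter through that library. Interferon-stimulated genes leaned to the irradiated PBS side, with 23 of 32 above 0 and a median of 0.24. The part of macrophages in these ratios was not tested, and H2-Q6, the MHC gene past 2-fold, has near-identical copies.

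p53 target genes had 23 of 30 ratios below 0 (median -0.17), so they were slightly higher in the unirradiated BuOE library than in the irradiated PBS library. Cdkn1a, the cell cycle inhibitor that p53 induces, stood at 201, 354, 244 and 591 CPM (ratio -0.54, -0.58 to -0.50), and Gdf15, a stress cytokine, at 10.4, 17.0, 4.88 and 33.2 CPM (ratio -1.78, -2.05 to -1.54). In both genes each BuOE library exceeded the 2 PBS libraries. Perp, a p53 target that also builds desmosomes, had a ratio of -1.12 (-1.20 to -1.04), and Mdm2, the ligase that limits p53, of -0.11 (-0.17 to -0.05). Ckap2, the member past 2-fold on the irradiated PBS side (ratio 1.29, 1.14 to 1.46), is also a spindle protein of dividing cells.

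Several lists lay away from the untreated PBS library in both treatments but did not separate the treatments from each other. These 2 comparisons share the PBS library, which alone makes their values run alike, so they are set side by side without a measure of agreement. NRF2 and glutathione genes had a median of -0.37 for irradiated PBS over PBS and -0.37 for BuOE over PBS, and -0.0065 between the treatments, with none of 33 past 2-fold. Nqo1, a quinone reductase, stood at 391, 178, 223 and 229 CPM (ratio 0.32, 0.27 to 0.37), and Txnrd1, thioredoxin reductase, at 1225, 619, 868 and 838 CPM (ratio 0.49, 0.46 to 0.51). Hmox1, heme oxygenase, was level between the treatments (ratio 0.072, 0.053 to 0.092), and its sign turned with scaling by library size alone (-0.011).

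Sterol synthesis genes gave medians of -0.47 and -0.50 over PBS and 0.042 between the treatments, with none of 25 past 2-fold. Glycolysis and hypoxia genes gave 0.56 and 0.63 over PBS and -0.016 between them, with none of 31 past 2-fold. Scd1, a fatty acid desaturase, stood at 1349.9, 302, 295 and 236 CPM (ratio -0.035, -0.075 to 0.0058). Car9, the carbonic anhydrase induced by hypoxia, was lowest among its members, at 5.28, 56.3, 32.2 and 101 CPM (ratio -0.81, -0.92 to -0.70). Mitochondrially encoded mRNAs gave 1.13 and 0.81 over PBS and 0.29 between the treatments, with mt-Co1 at 1940.2, 3255, 3855 and 10675 CPM (ratio 0.24, 0.23 to 0.26). For these lists the distance of each treatment from PBS exceeded the distance between the treatments.

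Superoxide dismutases, catalase and peroxidases, which clear superoxide or peroxide, were close to level between the libraries. None of 15 was past 2-fold, and the median was 0.055, against 0.018 over all genes. Sod1, the cytosolic superoxide dismutase, stood at 159, 149, 152 and 192 CPM (ratio 0.032, -0.026 to 0.089). Sod2, the mitochondrial form, stood at 85.9, 105, 89.7 and 109 CPM (ratio -0.23, -0.30 to -0.16). Sod3, the secreted form, stood at 84.3, 127, 116 and 106 CPM (ratio -0.12, -0.19 to -0.059). Gpx7, a peroxidase of the endoplasmic reticulum, had the highest ratio of the list (ratio 0.56, 0.38 to 0.74), and Sod2 the lowest. Among enzymes that produce superoxide or nitric oxide, Nox4 was higher in the irradiated PBS library (5.62, 4.49, 7.89 and 3.70 CPM, ratio 0.81, 0.51 to 1.12), and Nos1 was the member past 2-fold, on the BuOE side.

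The other libraries of the series allow the same genes to be read in a pair that shares no library with this one, the PBS library over the irradiated BuOE library. This reading was chosen after the values were seen. In that pair 901 of 14365 genes (6.27%) exceeded 2-fold on the PBS side and 1313 (9.14%) on the irradiated BuOE side. Of the 465 genes past 2-fold on the irradiated PBS side between the single treatments, 285 (61.3% of the 465, 31.6% of the 901) were at least 2-fold higher in PBS than in irradiated BuOE, and 19 (4.09%) at least 2-fold lower, against 9.14% of all genes. Of the 570 lower genes, 207 (36.3% of the 570, 15.8% of the 1313) were also lower. Another 65 (11.4% of the 570) were at least 2-fold higher, a larger share than the 6.27% of all genes. The higher genes had a median of 1.28 in the second pair and the lower genes -0.56, against 0.048 over all genes.

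By list, mitosis genes had a median of 1.94 in the second pair, DNA replication genes 1.41, fibrillar collagens 0.65 and epithelial markers -0.54, the same sides as between the single treatments. Of the 53 lists, 35 had medians on the same side of 0 in both pairs, 15 went from above 0 to below it and 3 from below to above. Among those that turned were mitochondrially encoded mRNAs (from 0.29 to -2.65), endothelial markers (from 0.33 to -0.68), cytosolic ribosomal proteins (from 0.13 to -0.50), senescence-associated factors (from 0.36 to -0.34), ER chaperone genes (from 0.32 to -0.12) and YAP and TEAD targets (from 0.61 to -0.089). Neuronal genes had a median of -1.07, from far smaller sums (230.4 and 317 CPM) than those of the single treatments. Genes of a cell type or of the cell cycle are not independent of each other, so the shared sides describe these 4 libraries.

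**Figure D5:**
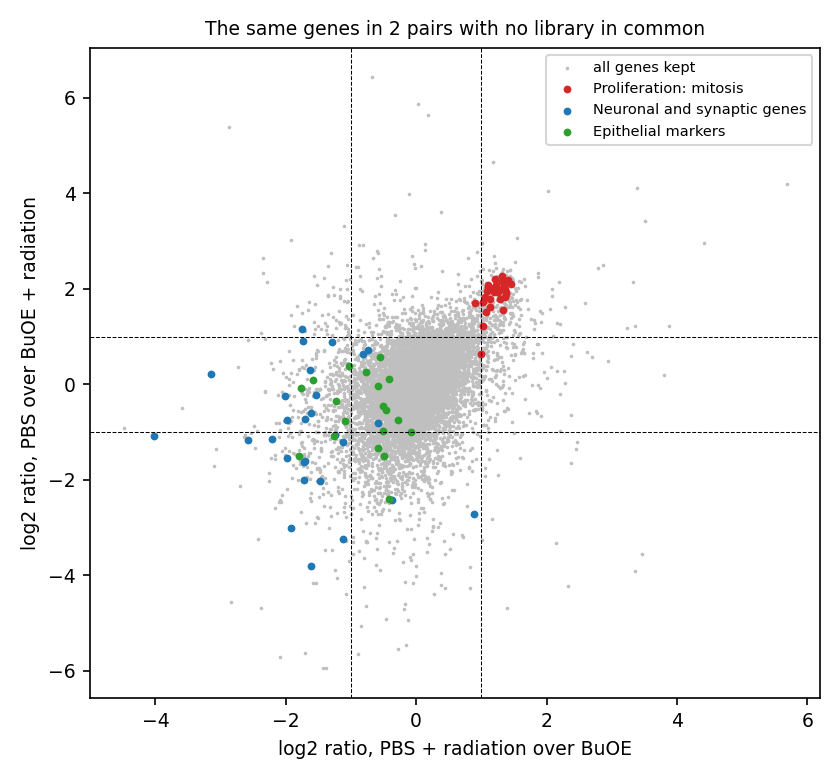
Each point is a gene, with its log2 ratio of irradiated PBS over BuOE on the horizontal axis and of PBS over irradiated BuOE on the vertical axis; dashed lines mark 2-fold. Mitosis genes (red) gather in the upper right, with medians of 1.22 and 1.94, and neuronal genes (blue) scatter over the left.

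The genes on the 2 sides also differed in properties of their transcripts. Across genes the ratio was lower at higher GC content of the longest transcript (Spearman's correlation -0.28 over 14252 genes, which are not independent and share both libraries), and was nearly flat against transcript length (-0.048). In the quintile of lowest GC content 4.84% of genes were at least 2-fold higher in the irradiated PBS library and 2.39% lower, and in the quintile of highest GC content 2.74% and 6.17%. Median GC content was 46.8% for the 465 higher genes, 52.3% for the 570 lower genes and 49.7% over all. The part of GC content in the ratios was not tested. Median level was 10.3 CPM for the higher genes, 3.94 CPM for the lower ones and 24.1 CPM over all.

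When all 4 libraries were fitted with a radiation term and a BuOE term that add, and the interaction was taken as error, 1 residual degree of freedom remained, and the difference of the terms is again that between these 2 libraries. edgeR's quasi-likelihood test called 0 of 14365 genes at an adjusted p of 0.05 (Benjamini-Hochberg; smallest adjusted p 0.506), with 1092 genes at an unadjusted p under 0.05. limma-voom called 0 (1099 unadjusted). DESeq2 called 85 of the 14365 genes, of which 56 were higher in the irradiated PBS library, and gave no adjusted p for 3899. It had 714 genes at an unadjusted p under 0.05, fewer than edgeR or limma-voom. The DESeq2 calls include 10 of the 30 mitosis genes, among them Mki67 and Top2a. They also include the contractile genes Acta2, Actg2, Myl9 and Tagln, and 6 of the 7 basal and desmosomal genes named above. Of the neuronal list, the most displaced on the BuOE side, DESeq2 called only Nefl. It called no gene of the fibrillar collagen, p53 target, MHC class I and Schwann cell lists.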

How the data were processed

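RNA of cultured mouse prostate fibroblasts was sequenced, with 1 library per condition. The authors deposited raw read counts per gene for the 4 libraries, made with featureCounts on GRCm39, per the submitters' processing notes. Those notes list Trim Galore 0.6.4, Salmon 1.4.0 and edgeR 4.2.2 as well, with no role given. The sources used here do not give the handling of strand or multiply mapped reads, which leaves antisense and near-identical genes uncertain. No sample column was left unused.

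Symbols, biotypes, chromosomes, transcript lengths and GC content were joined by Ensembl ID from GENCODE M21 (GRCm38), without coordinates; 4675 of 56748 IDs had no symbol, 113 of them among the 14365 kept. Promoters came from RefSeq (GRCm38.p6), matched by symbol. Counts were scaled with TMM factors from edgeR 4.0.16 (R 4.3.3), 1.05 for the BuOE and 0.992 for the irradiated PBS library, and log2 ratios used a prior count of 2. Intervals are exact binomial intervals of the 2 counts given the scaled totals. The additive model was fitted with edgeR, DESeq2 1.42.0 and limma 3.58.1. The ratio and model steps were tested on simulated counts.

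The gene lists (53, with 1031 different genes, of which 1028 matched a symbol and 974 were kept) and members were chosen with earlier results of these data known, and list counts stand beside those of all genes with no set test. The rule for named genes took the 20 highest and the 20 lowest ratios at a mean of 10 CPM or more, the 10 highest and lowest at 100 CPM or more, the 10 largest CPM differences each way, the 2 most expressed and the extreme members of each list, a set of 25 genes of fibrosis, cell cycle and redox response, and genes at the limits, leaving out gene models, pseudogenes and small RNAs. Examples outside that rule were picked with their values known, and not every gene the rule takes is reported. Some items are not reported here.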

Additional observations from a re-analysis of the deposited data

How the results depend on the processing

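Between scalings (DESeq2 size factors, library size alone, upper-quartile factors, TMM over the 2 libraries, totals without mitochondrially encoded genes) and prior counts of 0.5 and 5, the genes at least 2-fold higher numbered 382 to 483 and those at least 2-fold lower 537 to 676, against 465 and 570. Without a filter they numbered 1720 and 1690, with a mean of 10 CPM 236 and 155, and by the nearer bound of the counting interval 245 and 313. Of 53 list medians, 3 changed sign at a mean of 10 CPM, those of adipocyte genes (-0.13), mesothelial markers (-0.36) and skeletal myogenic genes (-0.54), and that of proliferin and cornification genes did so without a filter (-0.13). Scaling by library size alone lowered the median of all genes by 0.082, and with it the ratios of Hmox1 (-0.011), Hsp90ab1 (-0.046), Malat1 (-0.058; -0.0057 with DESeq2 size factors), Pkm (-0.033), Prdx1 (-0.028), Sbp (-0.048), Tgfb1 (-0.032) and Vegfa (-0.0085) changed sign. The additive model called 0 genes with edgeR under each setting run and with limma-voom, and 85 with DESeq2, and the cause of that gap was not tested. No paired analysis was possible because each group has 1 library. No library could be left out, for the same reason. Ratios of scarce genes are limited by depth: 3 counts equal 0.0990 CPM in the BuOE library.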

Other observations

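Some groups not described above differed little or by few members. Cytosolic ribosomal protein genes had 37 of 37 ratios above 0, but by a median of 0.13, and nuclear-encoded subunits of the respiratory chain a median of 0.056. ER chaperone and amino acid stress genes had 21 of 29 above 0 (median 0.32), with the serine synthesis gene Psat1 highest (175, 75.6, 153 and 107 CPM, ratio 1.02, 0.95 to 1.09). Endothelial markers had 14 of 14 above 0 (median 0.33) with none past 2-fold, led by the angiopoietin receptor gene Tek (ratio 0.58, 0.47 to 0.70). Steroid receptors and glucocorticoid targets had 9 of 14 below 0 (median -0.26), with Pdk4, an inhibitor of pyruvate oxidation, lowest (56.0, 64.6, 33.1 and 115 CPM, ratio -0.96, -1.07 to -0.86).

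Single genes that left their list were Nr4a3, an orphan nuclear receptor of the immediate early response, at 11.7, 32.2, 7.10 and 35.0 CPM (ratio -2.17, -2.39 to -1.98), while its relative Nr4a2 had a ratio of 0.87 (0.75 to 1.00). Igkc, an immunoglobulin light chain constant gene named after its value was seen, stood at 9.67, 0.330, 3.93 and 2.14 CPM (ratio 3.33, 2.65 to 4.67), although the B cell gene Ms4a1 did not pass the filter. Lars2, the mitochondrial leucyl-tRNA synthetase, stood at 388, 706, 314 and 108 CPM (ratio -1.17, -1.20 to -1.14), the lowest of the 4 in the irradiated BuOE library. Globin transcripts were scarce in both libraries, with Hbb-bs at 49.5, 8.81, 3.71 and 21.8 CPM (ratio -1.23, -1.56 to -0.94), and its near-identical paralog makes the value uncertain. In the adipocyte list, Adipoq had 3 counts in the irradiated PBS library and none in the BuOE library, so no ratio is given.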
